A study of Mus musculus with 18 samples.

Results

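Untreated fibroblasts of 3 mouse embryos labelled as knock-outs of Nfic (KO) were compared with untreated fibroblasts of 3 wild-type (WT) embryos, with 1 Affymetrix array per embryo. The 6 arrays were chosen by their labels alone, as the cultures that received no TGF-β1, out of 18 arrays in all. The other arrays came from cultures of the same embryos after 1 h or 10 h of TGF-β1 at 12.5 ng/ml and entered only where named. The cells were primary mouse embryonic fibroblasts, cultured from embryos of 14 days without head and liver. All cultures, the untreated ones included, had been moved from serum to a medium with an albumin supplement, insulin, transferrin and selenium before RNA was taken. Strain, litter, culture batch and the deleted part of Nfic are not in the labels. Values are RMA log2 expression levels, so that a difference of 1 is 2-fold, and 3 values in a row belong to embryos 1, 2 and 3 of the genotype. Differences are KO minus WT with the standard error from limma, which pooled the spread over all 18 arrays, and n is 3 embryos per genotype throughout. The fit held no term for embryo, so the 3 cultures of an embryo counted as independent in that spread. Where cultures of an embryo resemble each other, this overstates the precision of p-values and intervals.

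Nfic encodes nuclear factor I-C, a transcription factor of the nuclear factor I family, whose other members are NFI-A, NFI-B and NFI-X. The proteins bind as dimers to a palindrome with the arms TTGGC and GCCAA and act on genes of many tissues as activators or repressors. Mice without NFI-C are known for short or missing tooth roots, and the factor has been studied in fibroblasts as a partner of growth factor signalling. Embryonic fibroblast cultures are mixed: they start from the whole minced trunk and limbs, and they can keep the positional genes of the region they came from as well as other cell types of the embryo.

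The array could not tell the genotypes apart by Nfic itself. The level of the brightest Nfic probe set differed by -0.10 ± 0.16, and without KO embryo 2, the lowest of the 6, by 0.12. Of the other Nfic probe sets, 1 averaged 6.13 in KO and 6.54 in WT cultures, a difference of -0.42 ± 0.21, and another averaged 6.31 in KO and 6.66 in WT cultures, a difference of -0.35 ± 0.24. The remaining 2 differed by 0.03 ± 0.14 and -0.07 ± 0.18. In the first pair KO embryo 2 was again the lowest of the 6, at 5.63 and 5.64, and the genotypes overlapped. Where on the transcript these probes lie was not used here, and a probe outside the deleted part checks nothing, so the genotype is given as labelled. The NFI relatives differed by less than their errors, with Nfib at -0.06 ± 0.23, Nfia at -0.05 ± 0.20 and Nfix at -0.03 ± 0.17 (limma adjusted p = 1.00 each).

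Around Nfic on chromosome 10, the nearest 25 tested genes on each side were read as a check on the engineered region, a set chosen with earlier results known. Of these 50 genes 0 passed the test, 6 (12%, beside 7.93% of all genes) had KO and WT values that did not overlap, and their median difference was 0.03. The gene order comes from RefSeq assembly GRCm38.p6 and no strain labels were used. Aldh1l2, which encodes a mitochondrial folate enzyme, had levels of 9.77, 9.69 and 9.81 in KO against 10.14, 10.09 and 10.09 in WT embryos, a difference of -0.35 ± 0.11. Its KO values lay below its WT values, and the differences after 1 h and 10 h of TGF-β1 were -0.35 and -0.31. Celf5, the next tested gene on one side of Nfic and the gene of an RNA-binding protein, had 5.88, 5.28 and 5.83 in KO against 5.00, 4.93 and 5.51 in WT embryos. KO embryo 2 lay below WT embryo 3, and the difference of 0.52 ± 0.18 was 0.50 at 1 h and -0.06 at 10 h. The largest difference of the 50 was that of 1500009L16Rik, at 0.53 ± 0.21. These genes were singled out after their values were seen.

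The genotype left no visible mark on the whole profile. Pairs of arrays of the same genotype correlated at 0.987 to 0.993 (6 pairs) and pairs of unlike genotype at 0.983 to 0.994 (9 pairs). As a sign of RNA integrity, 3′ minus 5′ control probes were read, and KO embryo 3 stood apart in them. Those of actin gave 0.54 in KO embryo 3 and 0.17 to 0.33 in the other cultures. Those of Gapdh gave 0.03 in KO embryo 3 and -0.27 to -0.08 in the others. What this did to the values of KO embryo 3 was not tested. Xist, the RNA that coats the inactive X chromosome, read 10.53 to 11.43 in all 6 cultures, and the Y-linked genes Eif2s3y, Kdm5d and Uty read at most 3.59, so no difference of sex between the groups was seen. Xist itself was 11.09, 10.53 and 10.90 in KO against 11.43, 11.10 and 11.18 in WT embryos, a difference of -0.40 ± 0.18. Its genotypes did not overlap in untreated cells, while the differences at 1 h and 10 h were 0.06 and -0.13.

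Among the treated arrays, 2 went against their embryo numbers. Deviations of the untreated arrays from their group mean correlated across genes with those of the same-numbered array at 0.59 to 0.76 after 1 h. After 10 h they did so at 0.28 to 0.49 in the KO embryos and WT embryo 1, but at -0.06 in WT embryo 2 and -0.20 in WT embryo 3. Untreated WT embryo 2 matched the 10 h array numbered 3 (0.44), and untreated WT embryo 3 the one numbered 2 (0.38). Group means are the same whichever number these arrays carry, so the comparison of untreated genotypes does not rest on them. The test of embryo differences does, and is given with and without both arrays.

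The basal profile was that of mesenchyme in both genotypes. A gene was taken as detected on an array where its probe set lay above that array's 40th percentile; 12463 of 18194 genes were detected on all 6 arrays. Of 28 fibroblast identity genes on the array 26 were detected on all 6, among them Vim, which encodes the intermediate filament vimentin, and Lox, the collagen crosslinking enzyme, at 13.63, 13.43 and 13.52 in KO and 13.62, 13.54 and 13.53 in WT embryos. The exceptions were Tcf21 and Dpp4. All 34 collagen and matrix genes were detected on all 6 arrays. Markers of other cells were detected in part. Of 17 endothelial markers 6 were detected on all 6 arrays and 8 on none. Pecam1, Cdh5 and Tek, which define endothelium, did not enter the test. Of 27 striated muscle markers 11 were detected on all 6 arrays and 12 on none, and Myod1, Myog and Pax7 did not enter it. The epithelial markers Cdh1, Trp63 and Krt14 likewise stayed out, while 11 of 20 were detected on all 6 arrays and 7 on none. Detection on all 6 arrays held for 12 of 19 neural and glial markers and 18 of 19 smooth muscle and pericyte genes. All 27 macrophage markers were detected on every array.

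No gene separated the genotypes at the threshold. Of 13679 tested genes 0 (0%) had a limma adjusted p under 0.05, and the smallest adjusted p was 0.746. By unadjusted p under 0.05 there were 460 genes (3.36%), of which 302 (2.21%) were higher and 158 (1.16%) lower in KO cells. In 1085 genes (7.93%) the 3 KO and the 3 WT values did not overlap, with 630 (4.61%) higher and 455 (3.33%) lower in KO cells. Most differences were small: the median absolute difference was 0.079 and 90% of genes lay under 0.224. For 96.7% of genes the 95% confidence interval stayed within 2-fold in both directions. The SD among embryos of a genotype exceeded the difference between genotypes in 75.9% of genes. Of the 4 genes that differed by more than 1, 2 did not overlap, Foxa1 and Mfap4.

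**Figure D1:**
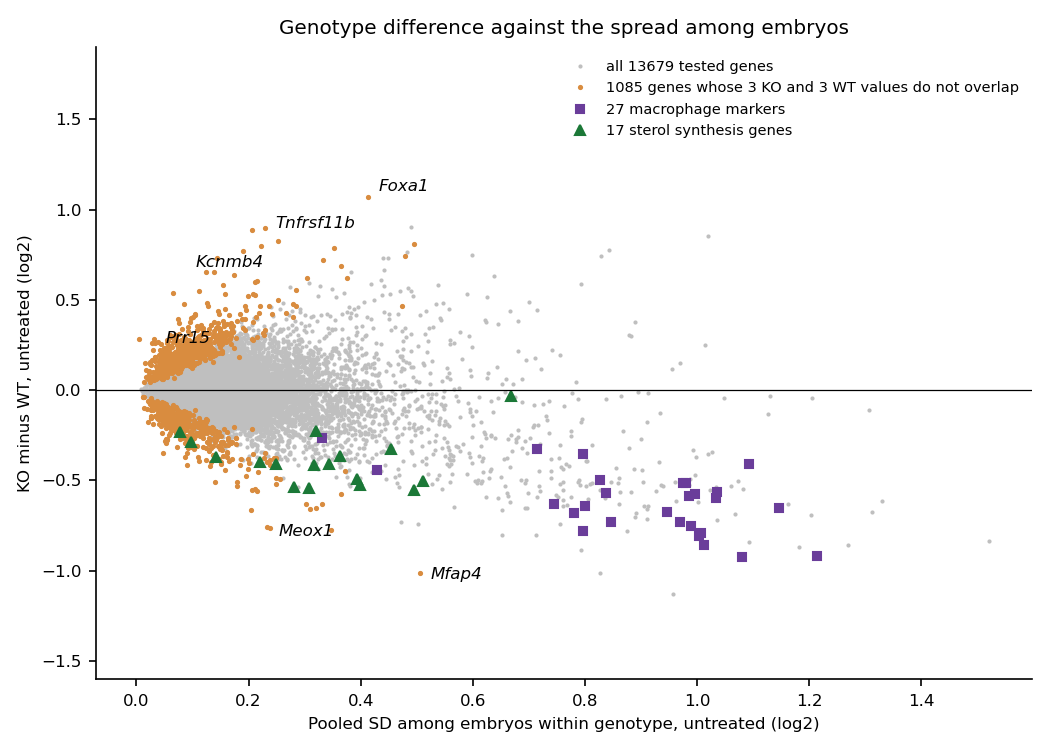
Difference between untreated KO and WT fibroblasts (KO minus WT, log2) against the pooled SD among embryos of a genotype (log2), 1 point per tested gene, with macrophage markers and sterol synthesis genes marked. The 1085 genes without overlap sit at small SDs, most macrophage markers lie below zero at SDs near 1, and the sterol genes lie below zero at smaller SDs.

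The 20 genes with the smallest p leaned towards higher levels in KO cells, with 17 higher and 3 lower. They are described by what they encode, and none passed the test (limma adjusted p between 0.746 and 1.00). Transcription factors were among those with the largest differences. Foxa1, a forkhead factor that opens chromatin in endoderm and epithelia, had levels of 6.57, 5.73 and 5.96 in KO against 5.11, 5.35 and 4.59 in WT embryos. The lowest KO culture was above the highest WT culture, and the means differed by 1.07 ± 0.25, or 2.10-fold. After TGF-β1 the difference was 0.80 at 1 h and 0.49 at 10 h. Its WT cultures read 4.03, 4.02 and 4.25 at 10 h, below the array medians of 4.74 to 4.81. What such low values did to the difference was not tested. Meox1, a homeobox factor of somites and their sclerotome, ran the other way, at 7.37, 7.82 and 7.32 in KO against 8.17, 8.14 and 8.47 in WT embryos. That is a difference of -0.76 ± 0.17, and the groups stayed apart at 1 h (-0.72) and at 10 h (-0.34).

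Genes of ion channels and G protein signalling followed. Kcnmb4, which encodes the β4 subunit of calcium-activated potassium channels, had the smallest p of all genes, with 7.81, 7.77 and 8.03 in KO and 7.10, 7.32 and 7.22 in WT embryos. The gap between the groups was larger than the range within either, and the 1.57-fold difference in untreated cells was 0.53 on the log2 scale at 1 h and 0.04 at 10 h. Rgs4, an inhibitor of G protein signalling, had 8.28, 7.79 and 8.36 in KO and 7.41, 7.34 and 7.28 in WT embryos. Its WT cultures lay close together, KO embryo 2 was the lowest of the KO cultures, and the difference of 0.80 ± 0.22 was 0.70 at 1 h and 0.76 at 10 h. Gna14, a G protein α subunit, stood at 0.66 ± 0.16.

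Secreted and surface proteins were also among the 20. Tnfrsf11b, the gene of osteoprotegerin, a decoy receptor that blocks osteoclast formation, had 7.51, 7.78 and 7.57 in KO against 6.88, 6.39 and 6.90 in WT embryos. Every KO culture was above every WT culture by more than 0.5, which the later times did not repeat: the 0.90 ± 0.22 of untreated cells was -0.06 at 1 h and 0.44 at 10 h. Angpt4, an angiopoietin ligand of the Tie2 receptor, averaged 7.83 ± 0.17 in KO and 7.30 ± 0.15 in WT embryos (SD, n = 3 each), with a lowest KO value of 7.67 and a highest WT value of 7.46. The matrix protein gene Tinagl1 had 9.50, 9.66 and 9.23 in KO and 8.67, 9.08 and 8.83 in WT embryos, and its differences of 0.60, 0.81 and 0.56 in untreated, 1 h and 10 h cultures were close together. Tcn2, whose product carries vitamin B12 in plasma, had 10.80, 10.83 and 10.91 in KO and 10.58, 10.31 and 10.40 in WT embryos. Perp, a membrane protein of desmosomes and a p53 target, had 7.47, 7.49 and 7.54 in KO and 6.66, 6.79 and 7.14 in WT embryos. The KO cultures agreed to within 0.1 while WT embryo 3 lay nearer to them than the other WT cultures, and the difference of 0.64 ± 0.16 was 0.63 at 1 h and 0.89 at 10 h. In the opposite direction, the matricellular protein gene Ccn3 had 8.78, 8.32 and 8.24 in KO against 9.08, 9.12 and 9.13 in WT embryos. Its WT values were nearly equal and KO embryo 1 came nearest to them, with differences of -0.66 ± 0.16, -0.66 at 1 h and -0.52 at 10 h.

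**Figure D2:**
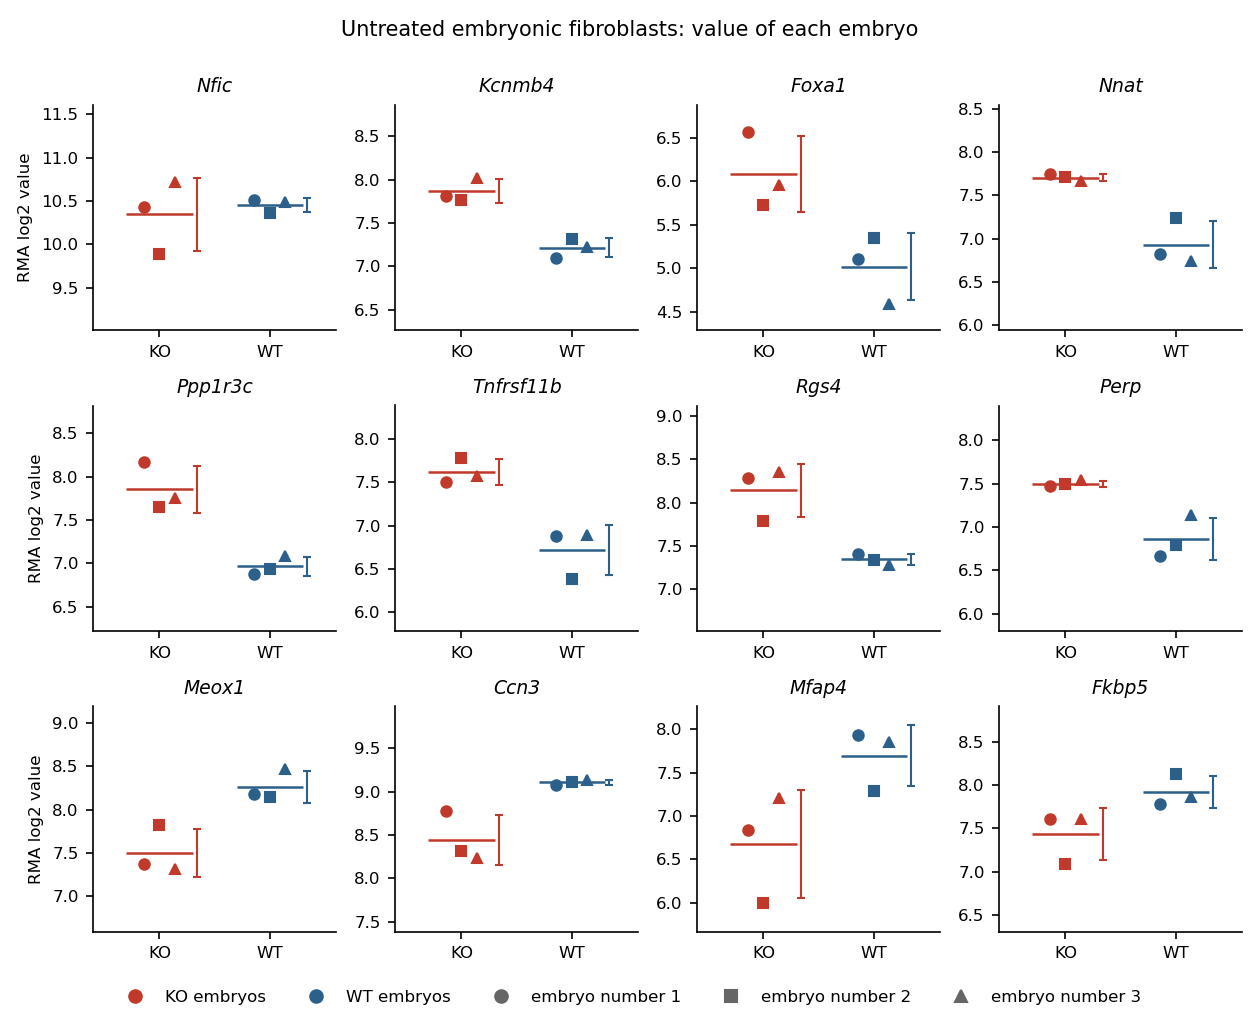
RMA log2 level in each untreated culture (points, shaped by embryo number) for Nfic and 11 of the named genes, KO at the left and WT at the right; lines are means and bars are SDs, n = 3. Nfic overlaps between the genotypes, and in each of the other panels all KO points lie on one side of all WT points.

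Metabolic and cochaperone genes completed the leading group. Ppp1r3c, which brings protein phosphatase 1 to glycogen, had 8.17, 7.65 and 7.75 in KO against 6.88, 6.94 and 7.09 in WT embryos, 1.85-fold apart. Its difference was 1.28 at 1 h but -0.38 at 10 h, where the groups were again separate in the opposite order. Nnat, the imprinted gene of the small membrane protein neuronatin, had 7.74, 7.71 and 7.66 in KO and 6.82, 7.24 and 6.74 in WT embryos. Its untreated difference of 0.77 ± 0.18 compared with 1.13 after 1 h of TGF-β1 and 0.88 after 10 h. Fkbp5, a cochaperone of the glucocorticoid receptor and a common target of that receptor, had 7.61, 7.09 and 7.61 in KO and 7.78, 8.13 and 7.86 in WT embryos. KO embryo 2 lay lowest, and the difference was -0.49 ± 0.13. The remaining genes of the 20 were Plscr2 (0.73 ± 0.15), Sytl1 (0.58 ± 0.15), Prrt1 (0.48 ± 0.10), Kctd1 (0.46 ± 0.12), Tmem51 (0.45 ± 0.11) and Prr15 (0.28 ± 0.08).

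Because the treated cultures came from the same embryos, the later times show how lasting a difference was and are no independent replicates. The comparison of genotypes called 0 genes (0%) at 1 h and 0 (0%) at 10 h as well. Of the 20 genes, 15 kept the sign of the untreated difference at both times, against 38.9% of all tested genes. The 20 were picked by their p in the same embryos, while most genes differed little in untreated cells. A higher share is thus in part built in, and no conclusion is drawn from it. Prrt1, for which the untreated groups were clearly separate, was at 0.00 and -0.04. The test of a change in the genotype difference with TGF-β1 called 0 genes at 1 h and 0 at 10 h (limma interaction terms; 233 and 305 genes had an unadjusted p under 0.05), so none of these shifts passed. Where a gene had a further detected probe set among the leading and largest differences, it pointed the same way in 17 of 17 probe sets of 11 genes. These probe sets read the same RNA, and the share over all genes was not computed, so no conclusion is drawn. Sizes did not always match. The second detected probe set of Angpt4 was at 0.56 ± 0.16 beside 0.53, but that of Ahr at -0.14 ± 0.16 beside -0.76.

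**Figure D3:**
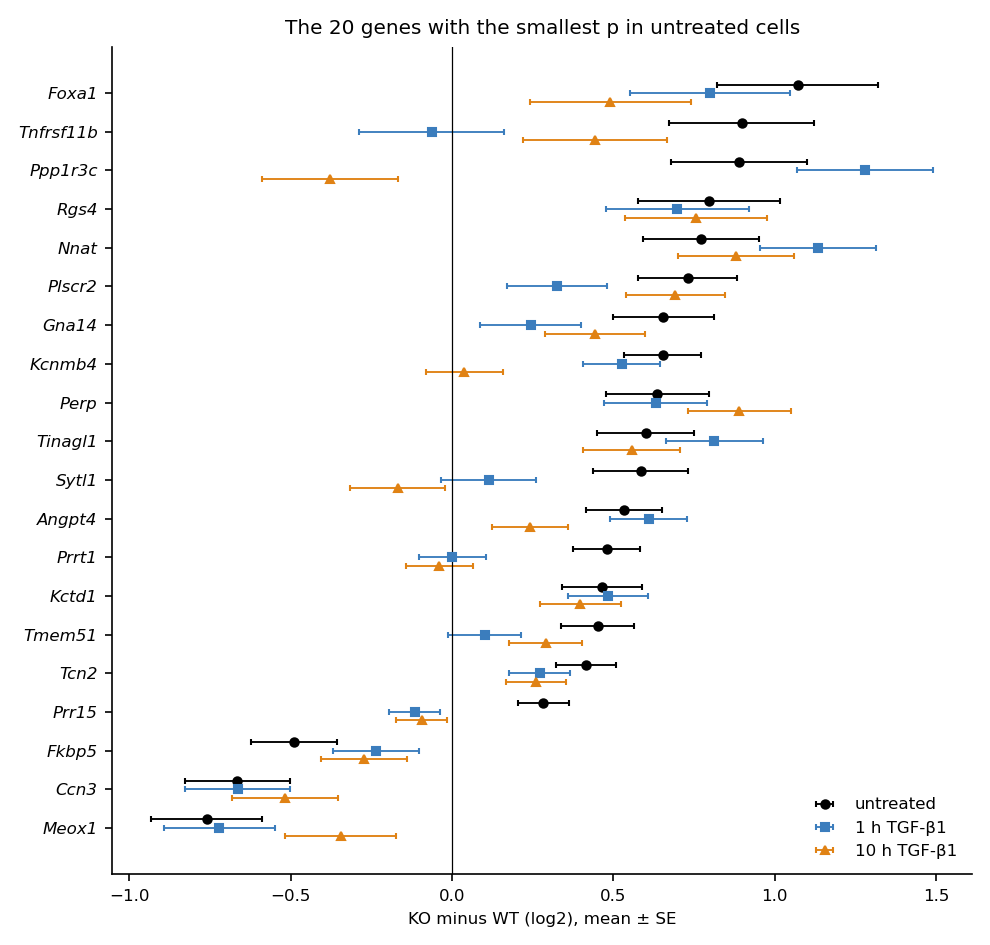
Difference between KO and WT (log2, mean ± SE, 3 embryos per genotype) for the 20 genes with the smallest p in untreated cells, shown for untreated, 1 h and 10 h cultures. Nnat, Perp, Tinagl1, Rgs4, Ccn3 and Meox1 keep their side in all 3, while Ppp1r3c and Sytl1 cross zero at 10 h and Prrt1 lies at zero after TGF-β1.

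The 10 largest positive and 10 largest negative differences without overlap added genes with wider spread. Mfap4, a protein of elastic microfibrils, had 6.84, 6.00 and 7.21 in KO against 7.94, 7.29 and 7.86 in WT embryos. KO embryo 3 almost reached WT embryo 2, and the difference of -1.01 ± 0.30, or 2.02-fold lower, was -0.69 at 1 h and -0.83 at 10 h. Ahr, the receptor for dioxins and other aryl hydrocarbons, had 8.51, 7.87 and 8.36 in KO against 9.01, 8.98 and 9.04 in WT embryos. Its WT cultures were nearly equal, and its differences of -0.76, -0.78 and -0.77 in untreated, 1 h and 10 h cultures hardly varied. Lower in KO cells were also Rpl39l (-0.65 ± 0.25), the IGF-II binding protein gene Igfbp6 (-0.63 ± 0.23), the angiotensin-cleaving aminopeptidase gene Enpep (-0.63 ± 0.29) and the ephrin receptor gene Epha3 (-0.58 ± 0.22). Higher were the lectin gene Chodl (0.83 ± 0.27) and the granule protease gene Mcpt8 (0.81 ± 0.37). The limma adjusted p was 1.00 for each of these genes.

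Separation of the genotypes in the same direction in untreated, 1 h and 10 h cultures was seen in 57 genes (0.417%), 29 higher and 28 lower in KO cells, and 9 of the 20 leading genes were among them. The differences in untreated cells ranged in size from 0.065 to 1.07, and 39 of the 57 had a limma unadjusted p under 0.05, beside 3.36% of all genes. Since the 57 were picked by separation in these same values, low p-values and members shared with the 20 are in part built in. Among those with lower levels in KO cells were the amino acid transporter genes Slc1a5 (-0.29 ± 0.13) and Slc7a1 (-0.20 ± 0.08), and Psph, the last enzyme of serine synthesis, with 8.94, 9.05 and 8.72 in KO and 9.21, 9.32 and 9.05 in WT embryos (-0.29 ± 0.10). The transporters were picked out after their values were seen, and how common such genes are among the 57 was not tested. ATF4 targets are the genes through which this stress factor raises amino acid synthesis and uptake. In their list 0 of 19 passed and 14 lay below zero (73.7%, beside 49.3% of all genes). Without overlap were 4, all lower in KO cells (Psph, Psat1, Asns and Atf4 itself). Those 4 are 21.1% of the list, beside 3.33% of all genes, and the median was -0.10. Atf4 differed by only -0.16 ± 0.08. Its further detected probe sets differed by 0.03 ± 0.24 and -0.11 ± 0.12, and the genotypes overlapped in both.

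The promoters of the leading genes were read for the sequence NFI dimers bind. RefSeq promoters (GRCm38.p6, from 250 bases before to 50 after the start) were at hand for 13 of the 20 genes, 14 promoters in all. The full palindrome, TTGGC and GCCAA with any 5 bases between them, searched on both strands, was in 0 of the 14 and in 0.0365% of 32851 promoters. The form without its last 2 bases, which ends in GCC and contains every full palindrome, was in 1 of the 14 and in 1.38% of all. That promoter, of Prr15 at chr6:54326651-54326950 on the plus strand, is shown because it alone held a match, which lies at position -25 from the start and reads on the minus strand (capitals):
Prr15 promoter: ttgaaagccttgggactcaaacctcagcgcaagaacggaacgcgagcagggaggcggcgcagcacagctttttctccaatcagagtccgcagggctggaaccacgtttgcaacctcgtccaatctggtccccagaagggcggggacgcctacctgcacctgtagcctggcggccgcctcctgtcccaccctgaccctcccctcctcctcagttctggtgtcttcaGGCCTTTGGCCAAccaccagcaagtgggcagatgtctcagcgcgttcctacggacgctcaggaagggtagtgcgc
Prr15 itself read 4.36, 4.42 and 4.39 in KO against 4.12, 4.07 and 4.13 in WT embryos, a small gap at the low end of the scale, and lay at -0.12 at 1 h and -0.09 at 10 h.

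Among the lists of pathways and cell types, sterol synthesis lay furthest to one side outside the markers of other cells. These enzymes turn acetyl-CoA through mevalonate and squalene into cholesterol, and the factor SREBP2 raises them together when cholesterol is short. Of 17 tested genes 0 passed, all 17 lay below zero and 4 did not overlap (23.5%, beside 3.33% of all genes), with a median of -0.41, where the median of all genes was 0.00. Fewer cells of a type and less RNA per cell cannot be told apart in such bulk cultures. Hmgcs1, the synthase at the entry to the mevalonate pathway, had 11.12, 11.34 and 11.25 in KO against 11.38, 11.96 and 11.57 in WT embryos. The gap between the highest KO and the lowest WT value was narrow, and the difference was -0.40 ± 0.21. Sqle, the squalene epoxidase, had 9.44, 9.97 and 9.55 in KO and 9.89, 10.56 and 10.16 in WT embryos (-0.54 ± 0.21), and Mvd, the mevalonate decarboxylase, had 7.13, 7.39 and 7.04 in KO and 7.33, 8.03 and 7.81 in WT embryos (-0.54 ± 0.19). In both, KO embryo 2 lay above WT embryo 1. Of the late enzymes Dhcr7 had 7.81, 7.74 and 8.02 in KO and 8.09, 8.36 and 8.24 in WT embryos (-0.37 ± 0.14), and Ebp 8.39, 8.35 and 8.28 in KO and 8.50, 8.68 and 8.53 in WT embryos (-0.23 ± 0.09). Neither overlapped.

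Embryos of both genotypes differed in the sterol genes as a block. The mean over the 17 genes was 8.75, 9.15 and 8.71 in KO and 8.91, 9.64 and 9.24 in WT embryos. WT embryo 2 was the highest of the 3 WT cultures in all 17 genes and WT embryo 1 the lowest in 16, while KO embryo 2 was the highest KO culture in 14. Embryo differences within a genotype passed a limma F test over all 18 arrays in 9 of the 17, and in 15 without the 10 h arrays of WT embryos 2 and 3 (5.96% and 13.7% of all genes did). The median difference was -0.53 without KO embryo 2, -0.57 without WT embryo 1 and -0.24 without WT embryo 2. It was -0.40 at 1 h and -0.43 at 10 h in the treated cultures of the same embryos. In the fatty acid synthesis list WT embryo 2 was the highest WT culture in 15 of 17 genes and KO embryo 2 the highest KO culture in 9, but WT embryo 1 was the lowest in only 8; the list had a median of -0.11 and 0 genes without overlap. In glycolysis and hypoxia genes WT embryo 2 was the highest WT culture in 20 of 22 and KO embryo 2 the highest KO culture in 15, with a median difference of -0.01.

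**Figure D4:**
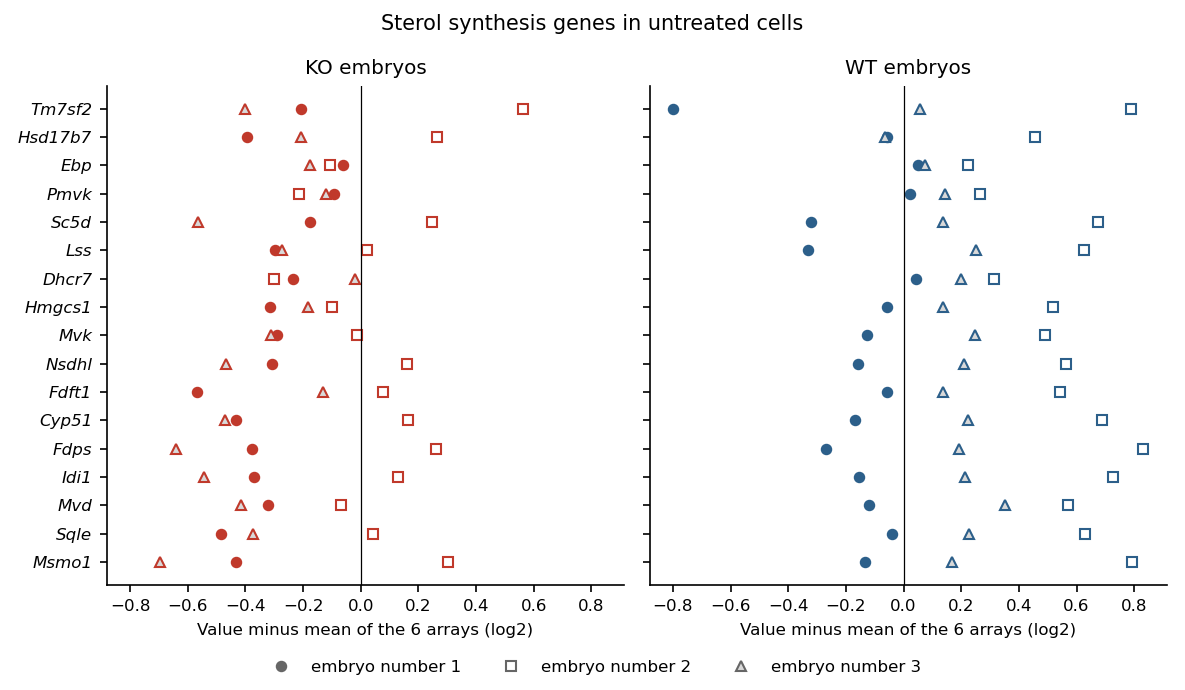
Level of each of 17 sterol synthesis genes in the untreated cultures, as the value minus the mean of the 6 arrays (log2), KO embryos at the left and WT embryos at the right. Embryo number 2 is the rightmost point in most rows of both panels, and WT embryo 1 overlaps the KO range in most rows.

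Regulators of sterol supply were less uniform. Insig1, which holds SREBP in the endoplasmic reticulum and is itself an SREBP target, had 7.10, 7.85 and 7.47 in KO against 7.98, 8.39 and 8.03 in WT embryos. The groups did not overlap at any time, with differences of -0.66 ± 0.22, -0.65 at 1 h and -0.86 at 10 h. The sterol carrier gene Stard4 had 7.40, 7.58 and 7.31 in KO and 7.64, 8.01 and 7.81 in WT embryos (-0.39 ± 0.15) and was also separate at all 3 times. Of 11 tested genes of uptake and SREBP control 0 passed, 9 lay below zero and these 2 did not overlap (18.2%, beside 3.33% of all genes lower), while the median was -0.07. The promoter motif TCACNCCAC, 1 spelling of the SREBP element, was searched on both strands in 17 promoters of 14 sterol synthesis genes. It was in 1 of them and in 1.24% of all promoters. The match is shown for Hmgcs1, chr13:119690101-119690400 on the plus strand (GRCm38.p6, RefSeq), with the match in capitals, at position -137 from the start:
Hmgcs1 promoter: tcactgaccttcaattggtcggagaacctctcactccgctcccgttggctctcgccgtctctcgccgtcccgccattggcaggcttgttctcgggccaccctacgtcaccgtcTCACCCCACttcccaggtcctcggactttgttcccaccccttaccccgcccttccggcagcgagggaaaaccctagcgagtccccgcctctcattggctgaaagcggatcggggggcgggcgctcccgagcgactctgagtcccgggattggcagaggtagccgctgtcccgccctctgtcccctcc

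In growth factor pathways single genes differed between the groups. Pdgfra, the PDGF receptor that marks embryonic mesenchyme, had 8.17, 7.95 and 8.60 in KO against 8.69, 8.54 and 9.70 in WT embryos. The groups touched, since KO embryo 3 lay above WT embryo 2, and the difference of -0.74 ± 0.29 was -0.38 without WT embryo 3. At 1 h (-0.69) and 10 h (-0.83) the groups were separate, and the 3 probe sets for Pdgfra were all lower in untreated KO cells (-0.74, -0.58 and -0.31). Of 11 other genes of PDGF signalling 0 passed and 0 were without overlap, while 9 (81.8%, beside 50.7% of all genes) lay above zero. Their median was 0.10, or 0.033 without KO embryo 1 and 0.037 without KO embryo 3. Of 33 TGF-β signalling genes 0 passed, 18 lay below zero and 1 (3.03%, beside 4.61% of all genes higher) was without overlap: Tgfbi, an adhesive matrix protein induced by TGF-β, with 10.93, 10.84 and 11.05 in KO and 10.52, 10.58 and 10.79 in WT embryos (0.31 ± 0.11). Of 15 genes of the IGF axis 0 passed, 2 were higher and 2 lower without overlap (13.3% each way, beside 4.61% and 3.33% of all genes). Htra1, a secreted protease that cleaves matrix and IGF binding proteins, had 12.40, 12.16 and 12.44 in KO and 11.81, 11.95 and 12.13 in WT embryos (0.37 ± 0.11). Igfbp3 stood at -0.38 ± 0.20.

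Matrix genes lay on both sides of zero. Of 34 collagen and matrix genes 0 passed, 2 were higher and 3 lower without overlap (5.88% and 8.82%, beside 4.61% and 3.33% of all genes), and the median was 0.01. The periostin gene Postn had 12.76, 12.95 and 12.98 in KO against 13.30, 13.35 and 13.15 in WT embryos (-0.37 ± 0.14), and Col6a3, a chain of microfibrillar collagen VI, had 11.17, 10.76 and 11.28 in KO and 11.29, 11.50 and 11.49 in WT embryos (-0.36 ± 0.13). The groups were separate in both, by a narrow margin in Col6a3. Of 23 matrix proteases and inhibitors 0 passed, 12 lay below zero (52.2%, beside 49.3% of all genes), and the median was -0.07. Without overlap, 2 were higher and 3 lower (8.7% and 13%, beside 4.61% and 3.33% of all genes). The most positive of the list was Mmp2, the gelatinase gene, at 11.94, 11.86 and 11.93 in KO and 11.62, 11.68 and 11.63 in WT embryos. Its cultures of a genotype agreed within 0.1, and its differences of 0.27 ± 0.09, 0.42 at 1 h and 0.26 at 10 h were without overlap at all 3 times.

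Skeletal and positional genes were higher in KO cells in a few cases. Col2a1, the main collagen of cartilage, had 9.57, 9.47 and 10.54 in KO against 9.34, 8.74 and 9.27 in WT embryos (0.74 ± 0.34), where KO embryo 3 stood well above all others. Pax1, a factor of the sclerotome that forms vertebrae, had 8.11, 7.46 and 8.34 in KO and 7.24, 6.95 and 7.34 in WT embryos (0.79 ± 0.26). The list of 20 cartilage and bone genes had a median of 0.07 with 0 passed and 2 without overlap, both higher (10%, beside 4.61% of all genes). Among 35 regional mesenchyme factors 0 passed and 4 were without overlap, all higher (11.4%, beside 4.61% of all genes), with a median of 0.05. They were Pax1, Foxd1 (0.46 ± 0.18), Alx4 (0.27 ± 0.12) and Nkx2-5 (0.20 ± 0.10).

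In limb genes of this kind single embryos stood apart. Posterior Hox genes pattern the distal limb and tail. WT embryo 1 was low in Hoxd13, with 7.42, 6.40 and 7.27 in KO and 5.78, 7.24 and 7.48 in WT embryos. It was also low in Hoxa10, with 6.73, 6.63 and 6.34 in KO and 5.34, 6.57 and 6.89 in WT embryos. Over all 27 Hox genes WT embryo 1 was the lowest WT culture in 11 and WT embryo 3 in 12. KO embryo 2 was low in the hindlimb factors Pitx1, with 7.12, 5.59 and 7.83 in KO and 7.05, 7.49 and 7.87 in WT embryos, and Tbx4, with 5.83, 4.68 and 6.37 in KO and 5.32, 6.43 and 6.63 in WT embryos. These 4 genes were picked out after their values were seen, for their spread among embryos. Of 27 Hox genes 9 passed the limma F test for embryo differences and 12 without the 10 h arrays of WT embryos 2 and 3, while between genotypes 0 passed and 0 were without overlap, at a median of 0.15.

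Macrophage markers formed the widest spread among embryos. Macrophages are part of embryonic mesenchyme and can persist in primary cultures. All 27 markers lay below zero, at a median of -0.63, but 0 passed and 0 were without overlap. Csf1r, the receptor for the macrophage growth factor CSF1, had 11.64, 9.65 and 10.41 in KO and 12.27, 10.44 and 10.71 in WT embryos. Mrc1, the mannose receptor, had 8.98, 6.62 and 7.40 in KO and 9.97, 7.65 and 8.14 in WT embryos. Embryo 1 was by far the highest of its genotype in both genes. Over the list the means were 9.26, 7.60 and 7.99 in KO and 9.93, 8.47 and 8.31 in WT embryos. WT embryo 1 was the highest of all 6 cultures in 27 of 27 markers, KO embryo 1 the highest of the KO cultures in 26 and KO embryo 2 the lowest of all in 23. The median difference was -1.11 without KO embryo 1, -0.11 without WT embryo 1 and -0.59 without both. Within a genotype, embryo differences passed the limma F test in 24 of the 27, with or without the 10 h arrays of WT embryos 2 and 3.

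**Figure D5:**
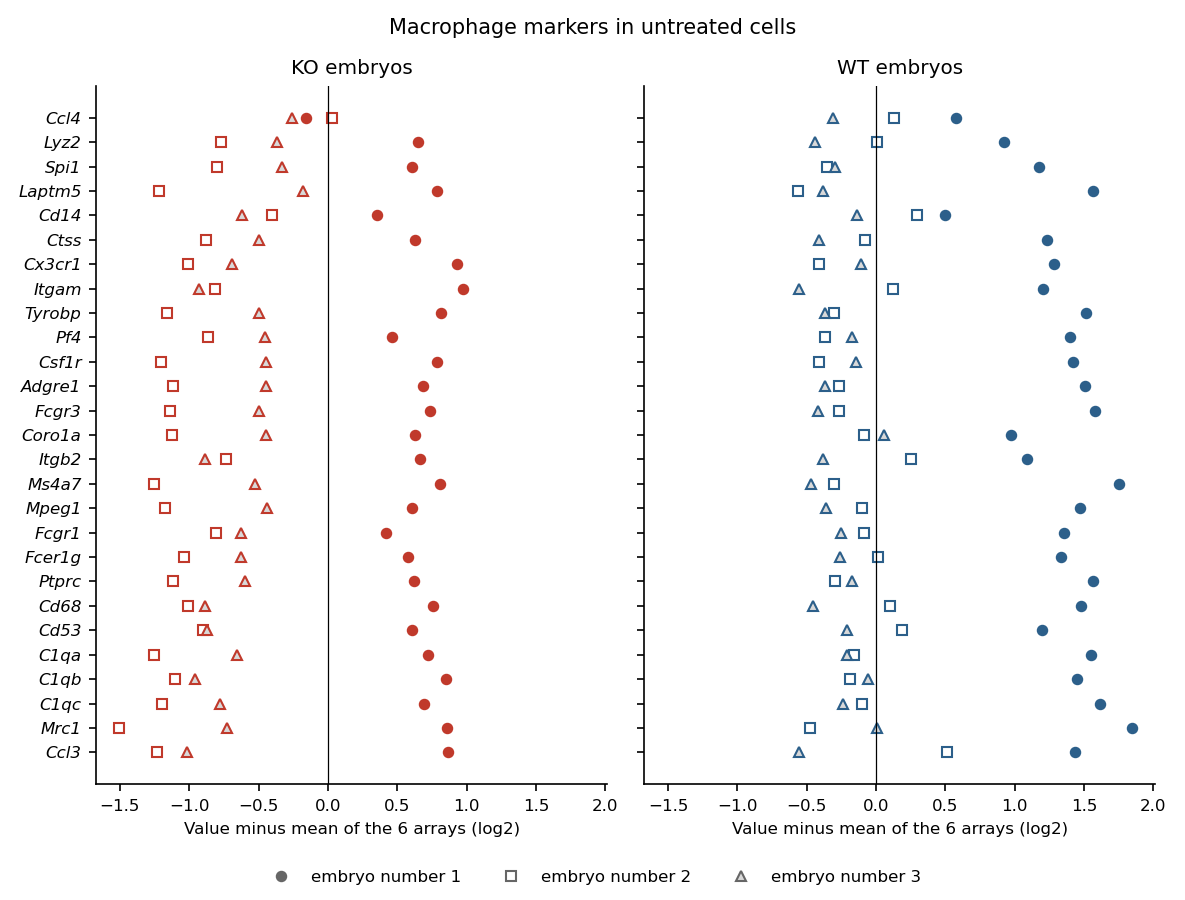
Level of each of 27 macrophage markers in the untreated cultures, as the value minus the mean of the 6 arrays (log2), KO embryos at the left and WT embryos at the right. Embryo number 1 lies to the right of the other points in nearly every row of both panels, by more than 1 log2 unit in many rows of the WT panel.

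The same embryos led the most variable genes of the whole array. Of the 20 genes with the largest SD among embryos of a genotype, 18 were highest in embryo number 1 of both genotypes. They were chosen by this spread, so no test of it is given for them. Among them were Hpgd, which breaks down prostaglandins, with 8.25, 5.55 and 6.79 in KO and 9.04, 6.76 and 7.36 in WT embryos, and Cd93, a surface receptor of myeloid and endothelial cells, with 8.12, 6.20 and 6.90 in KO and 9.29, 7.06 and 7.39 in WT embryos. Both were highest in embryo 1 of each genotype, as most macrophage markers were, and the part that macrophage number plays in these values was not tested.

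Across all genes 815 (5.96%) passed the F test for embryo differences within genotype, while 0 passed the test of genotype. The tests are unlike, so these counts do not rank embryo against genotype. The F test set embryos against the spread among cultures of the same embryo. The test of genotype had the spread among embryos in its error. Numbers are shared between genotypes, and the same number was highest in both genotypes in 39.1% of all genes but in 71.2% of these 815, of which 425 had number 1 highest in both. The count of 815 was 473 without KO embryo 2, 535 without KO embryo 3 and 251 without WT embryo 1, and 1869 without the 10 h arrays of WT embryos 2 and 3, a setting added after seeing the data. The labels do not say which embryos were processed together, and whether a number marks a shared litter, day or culture batch was not tested.

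The remaining lists showed little between genotypes. Of 31 interferon response genes 25 lay below zero and 1, a higher one, did not overlap (3.23%, beside 4.61% of all genes). The median of -0.20 was 0.00 at 1 h and 0.14 at 10 h. It was -0.31 without KO embryo 1 and -0.13 without KO embryo 2, and -0.045 without WT embryo 1, -0.38 without WT embryo 2 and -0.10 without WT embryo 3. Embryo number 1 was the highest in both genotypes in 15. Of 25 mitosis genes 0 were without overlap at a median of 0.03; KO embryo 1 was the highest KO culture in 23 and KO embryo 2 the lowest in 25, and 10 passed the F test for embryo differences, or 17 without the 10 h arrays of WT embryos 2 and 3. The 25 DNA replication genes had a median of -0.05. Markers of other cells went both ways. Of 14 epithelial markers 12 lay above zero, at a median of 0.13 that was 0.027 at 1 h. Of these, 3 were without overlap, all higher (21.4%, beside 4.61% of all genes), namely Perp, Cldn4 at 0.31 ± 0.12 and Krt15 at 0.28 ± 0.11. Of 14 neural markers 13 lay above zero, at a median of 0.12 that was 0.018 at 1 h, and 1 (7.14%) was without overlap. Of 13 adipogenic genes 11 lay below zero at a median of -0.09, and 7 erythroid markers had a median of -0.075. Of 18 smooth muscle and pericyte genes 3 were without overlap, all higher (16.7%), at a median of 0.06. Rgs5, a pericyte marker, had the largest difference there, with 8.32, 7.61 and 8.62 in KO and 6.91, 7.62 and 7.73 in WT embryos (0.77 ± 0.33), and overlapped. Of 10 tested endothelial markers only Flt1, a VEGF receptor gene, did not overlap, with 5.95, 6.00 and 6.15 in KO and 6.82, 6.50 and 6.37 in WT embryos (-0.53 ± 0.16). In all of these lists 0 genes passed.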

How the data were processed

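Expression was measured in 18 cultures on Affymetrix arrays. Per the labels, biotin-labelled cRNA was made with a one-cycle kit. The authors deposited log2 values, for which the submitters' processing notes name RMA but no version. Values ran from 2.49 to 14.47 and array medians from 4.74 to 4.81; the normalization was kept. Arrays hold no read depth, so that their number limits the precision.

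Of 45101 probe sets 34958 carried a single symbol in the platform annotation, 932 several and 9211 none; 34754 matched RefSeq (GRCm38.p6) by Entrez number. Each of 18194 genes was read from its brightest probe set by the mean over 18 arrays. The 13679 genes above the 40th percentile of their array on at least 3 arrays were tested; 4515 were not. A mean per group was fitted for 6 groups with limma 3.58.1 in R 4.3.3 (12 residual degrees of freedom), and p-values were two-sided and adjusted by Benjamini-Hochberg over all tested genes at 0.05. Embryo differences within genotype were tested by a moderated F test over embryos and conditions (8 residual degrees of freedom). The fits were tested on simulated data. In the simulation of the genotype test all arrays were independent. It therefore cannot show what likeness among cultures of an embryo does to that test.

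Named genes are the 20 with the smallest p, the 10 largest positive and 10 largest negative differences without overlap, the 20 with the largest SD among embryos, up to 4 members of each of 37 lists with the smallest p, and a fixed set; some members of lists are described beyond that rule to account for a list, and genes picked after their values were seen are said to be so. Of 792 list genes 744 were on the array and 663 tested. Members, lists and tests were chosen with earlier results of these data known. Some genes are not reported here.

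Same-numbered KO and WT embryos are different embryos. Their deviations from the group means correlated at 0.346, 0.541 and 0.0729 for numbers 1, 2 and 3, and at -0.490 to 0.184 for unlike numbers. Numbers 1 and 2 thus matched across genotypes and number 3 did not, and the numbers were not taken as pairs. The alternatives were other filters, scalings, variance models and probe sets, embryo as a block, and leaving out embryos.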

Additional observations from a re-analysis of the deposited data

How the results depend on the processing

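Under all 17 alternatives 0 genes passed between the genotypes, and the smallest adjusted p ranged from 0.177 to 1.00. The number of genes with an unadjusted p under 0.05 was 298 with a 60th percentile filter, 1311 with every probe set tested and 722 with the number as a replicate block (smallest limma adjusted p = 0.177), a pairing that the check of deviations showed for numbers 1 and 2 but not for number 3. The block made no call. Embryo numbers of the 10 h arrays, doubtful in WT embryos 2 and 3, also enter this block, the random block (454) and the mean of 3 arrays (659). Without each embryo in turn it was 354 to 546. The share of genes without overlap was 15.5% to 18.8% without each embryo in turn and 31.8% without KO and WT embryo 1, where fewer samples make separation easier. Genes with embryo differences within genotype numbered 3172 with only the untreated and 1 h arrays, 125 with only the untreated and 10 h arrays, 1869 without the 10 h arrays of WT embryos 2 and 3, and 251 to 1200 without each embryo in turn. The settings without both embryos 1, with each embryo's 3 arrays averaged, and with the 10 h arrays left out or set alone against untreated were added after seeing the data. A part of the named genes, 74, was followed under 16 alternatives, and 66 of these kept their direction. Among the 74, leaving out embryos turned Nfic (-0.29 to 0.12), Nfib (-0.22 to 0.10), Nfia (-0.22 to 0.17), Nfix (-0.17 to 0.11), Hoxa10 (-0.16 to 0.61), Hoxd13 (-0.33 to 0.52), Lox (-0.088 to 0.010) and Pitx1 (-1.12 to 0.0018). Genes outside the 74 also changed sign when embryos were left out. Examples are Vim (-0.071 to 0.042), Tgfb1 (-0.40 to 0.056), Pdgfa (-0.27 to 0.036), Apoe (-0.71 to 0.68), Igfbp2 (-0.67 to 0.70) and Lyz2 (-0.73 to 0.053). With embryos 1 of both genotypes left out, Nfib was 0.043, Hoxa10 -0.24 and Hoxd13 -0.52, and in the mean of 3 arrays Nfib was 0.18, Nfia 0.0098 and Lox 0.021. The cause was not tested. Genes near background limit low values such as Prr15 and the WT values of Foxa1, Gna14 and Chodl.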
